A study of Mus musculus with 20 samples.

Results

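The nuclear-encoded subunits of the mitochondrial respiratory chain were examined in mouse livers after knockdown or overexpression of Pklr, the gene of the liver and red cell form of pyruvate kinase. Members were all protein-coding genes whose symbol opens with Ndufa, Ndufb, Ndufc, Ndufs or Ndufv for complex I (the assembly factors Ndufaf left out), with Uqcr for complex III, with Cox4i, Cox5, Cox6, Cox7 or Cox8 for complex IV, or with Atp5 for complex V. The annotation holds 82 such genes, and 79 of them were listed in both experiments, with 38 in complex I, 8 in complex III, 16 in complex IV and 17 in complex V. The other 3 (Cox7b2, Cox8c and a further Atp5o identifier) were not analysed here. The 79 members were part of the 25238 genes that both experiments listed. All 20 mice were male C57BL/6J, received 1 adeno-associated virus of serotype AAV8 into a vein at 8 weeks of age, then ate a diet named HF/HS, and were sampled at 25 weeks. Of the 4 groups of 5 livers, shPKLR got a hairpin RNA that targets Pklr and shLUC, its control, got one that targets the luciferase gene of the firefly. PKLR got the coding sequence of Pklr itself, and GFP was its control. The promoter of thyroxine binding globulin, active in hepatocytes, drove the vectors according to the series description. All animals, controls included, thus carried a vector and ate the same diet.

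The respiratory chain passes electrons from NADH (complex I) or succinate (complex II) through ubiquinone, complex III and cytochrome c to oxygen at complex IV, and complex V, the ATP synthase, uses the proton gradient that the other complexes build. Its core is encoded partly by mitochondrial DNA and its remaining subunits by nuclear genes, whose mRNAs are among the more abundant housekeeping transcripts of hepatocytes. Many of the nuclear genes are known to be bound by the factors NRF1, GABP (an ETS protein) and YY1 close to the start of transcription. Pyruvate kinase makes the pyruvate that mitochondria oxidise to feed the chain.

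Promoter sequences of RefSeq, build GRCm38.p6, running from 250 bases before to 50 after a start, were found for 65 of the 79 members, giving 70 promoters. The NRF1 letters (GCGCA and GCGC with any base between them), read on both strands like the other motifs, were in 22.9% of the members' promoters, against 9.27% of the 13152 promoters of other protein-coding genes tested and 4.6% of all 32851 promoters. For the ETS letters CCGGAAG these shares were 20%, 16.4% and 8.86%, and for the YY1 letters AAGATGGC they were 14.3%, 4.09% and 2.75%. At least 1 of the motifs was in 50% of the members' promoters, against 26.5% of those of other genes tested and 14.7% of all promoters. The ETS and YY1 letters can share the bases AAG, and a match is a description, not a site. By complex, NRF1 letters were in 7 of 33 complex I members, 1 of 5 in complex III, 1 of 12 in complex IV and 6 of 15 in complex V. YY1 letters were in 7 members of complex I and 3 of complex V, and in 0 of complexes III and IV. The 4 promoters below are shown with the motif letters that were found in capitals. Atp5f1 (listed by RefSeq as Atp5pb) was the subunit with the clearest difference. The others had no call and are shown as examples: Ndufa8 and Uqcrc1 were among the members with the smallest p in overexpression, and Cox7a1 had the highest knockdown value.
Atp5f1, chr3:105959214-105959513, minus strand: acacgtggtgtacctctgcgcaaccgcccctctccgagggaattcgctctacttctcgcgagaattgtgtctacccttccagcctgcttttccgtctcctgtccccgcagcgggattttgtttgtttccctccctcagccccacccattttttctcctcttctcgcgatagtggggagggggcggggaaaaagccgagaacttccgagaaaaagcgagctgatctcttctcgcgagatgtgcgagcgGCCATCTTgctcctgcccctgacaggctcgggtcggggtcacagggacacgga
Ndufa8, chr2:36049289-36049588, minus strand: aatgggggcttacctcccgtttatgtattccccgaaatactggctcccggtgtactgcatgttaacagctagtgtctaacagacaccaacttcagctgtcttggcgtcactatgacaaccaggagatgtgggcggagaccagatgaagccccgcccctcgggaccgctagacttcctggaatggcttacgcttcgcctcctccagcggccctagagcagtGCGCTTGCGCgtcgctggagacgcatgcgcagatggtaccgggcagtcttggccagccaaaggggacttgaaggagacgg
Uqcrc1, chr9:108936398-108936697, plus strand: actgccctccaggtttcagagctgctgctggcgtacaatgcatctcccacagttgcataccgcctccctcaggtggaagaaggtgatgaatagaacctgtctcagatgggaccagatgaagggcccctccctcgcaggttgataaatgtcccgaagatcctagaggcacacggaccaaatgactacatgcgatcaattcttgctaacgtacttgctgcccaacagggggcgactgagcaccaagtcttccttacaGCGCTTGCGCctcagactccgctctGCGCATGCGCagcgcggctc
Cox7a1, chr7:30183921-30184220, plus strand: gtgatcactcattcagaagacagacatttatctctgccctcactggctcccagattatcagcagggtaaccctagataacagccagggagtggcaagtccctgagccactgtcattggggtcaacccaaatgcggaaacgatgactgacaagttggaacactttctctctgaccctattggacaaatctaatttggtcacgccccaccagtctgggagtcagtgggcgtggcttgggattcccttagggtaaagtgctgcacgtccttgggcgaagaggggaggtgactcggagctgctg
The Atp5f1 promoter held the YY1 letters in reverse, across the annotated start. The Ndufa8 promoter held the NRF1 letters once, before the start, while that of Uqcrc1 held them at 2 places, both after the start. That of Cox7a1 held none of the 3 motifs, which says only that these letters are not in its window.

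The libraries held between 29933820 and 45413803 counts, apart from 167891680 in shPKLR 4 (the number after a group is the replicate). Pklr itself ran from 24.4 to 80.5 CPM (read counts scaled to the size of the library) in shPKLR livers, against 343 to 616 CPM in shLUC livers. It ran from 389 to 945 CPM in PKLR livers, against 66.7 to 148 CPM in GFP livers, so every library stood on the side its label gives. The controls of the experiments differed in Pklr, and levels are compared within an experiment only. The 8 hepatocyte markers (Alb, Apoa1 and others) summed to at least 69772 CPM in each library, and none was at 0 in any group. The libraries shPKLR 1 and shPKLR 4 stood apart by transcript length. Relative to the shLUC mean, the median gene of up to 1000 bases less that of over 3000 bases was 0.39 in shPKLR 1 and 0.63 in shPKLR 4 on the log2 scale, against -0.07 to 0.11 in the other 3 shPKLR livers and -0.28 to 0.21 in the shLUC livers. This touches the members directly, because their median transcript length was 714 bases, against 2373 bases over all genes of the knockdown with a length. Knockdown results are therefore also given without these 2 libraries. In bulk liver RNA, fewer cells of a type and less RNA per cell cannot be told apart.

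Most members were abundant, and the level differed between complexes and, within complex IV, between paralogs. Per kilobase of transcript, the median member of complex V stood at 232 CPM in shPKLR livers, against 220 CPM in shLUC livers. It stood at 210 CPM in PKLR livers, against 191 CPM in GFP livers. In each group this median member was Atp5g1, whose length is uncertain. Its transcript was taken as 596 bases, while a best-ranked one of 4715 bases exists. Complex III (204 against 191, and 184 against 175) and complex IV (181 against 176, and 161 against 147) had intermediate medians. Complex I was lowest, at 95.6 CPM per kilobase in shPKLR livers against 90.8 in shLUC livers, and at 85.6 in PKLR livers against 81.9 in GFP livers. All 79 members summed to 9858 ± 1486 CPM in shPKLR livers, against 9890 ± 993 CPM in shLUC livers. In the overexpression they summed to 9487 ± 403 CPM in PKLR livers, against 9134 ± 781 CPM in GFP livers (SD, n = 5 each). Complex V alone summed to 3534 ± 177 CPM in shPKLR livers, against 3846 ± 251 CPM in shLUC livers, opposite in direction to its median. The mean sums of complexes I, III and IV were higher in shPKLR livers. In PKLR livers complex V summed to 3779 ± 124 CPM, against 3594 ± 320 CPM in GFP livers (SD, n = 5 each). These sums are scaled between libraries and are not shares of the raw counts. The highest level within a complex was that of Uqcrq (complex III), at 774 ± 308 CPM per kilobase in shPKLR livers, against 739 ± 124 in shLUC livers (SD, n = 5 each). In complex I it was Ndufa4 (542 ± 93.7 against 520 ± 64.4), a protein since assigned to complex IV, and in complex IV it was Cox6a1 (453 ± 122 against 431 ± 66.3). In complex V, Atp5g3, a gene of the membrane c-ring, led in the knockdown livers (414 ± 23.1 against 475 ± 48.7), and Atp5b, the catalytic beta subunit, led in the overexpression livers, at 469 in PKLR livers against 463 in GFP livers. Lengths are those of the shortest best-ranked transcript, and for 8 members (Ndufb2, Atp5d, Atp5g1, Atp5mpl, Ndufab1, Ndufc1, Uqcrq and Atp5g2) a best-ranked transcript over 1.5 times longer exists, so their levels per kilobase could be lower.

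**Figure D1:**
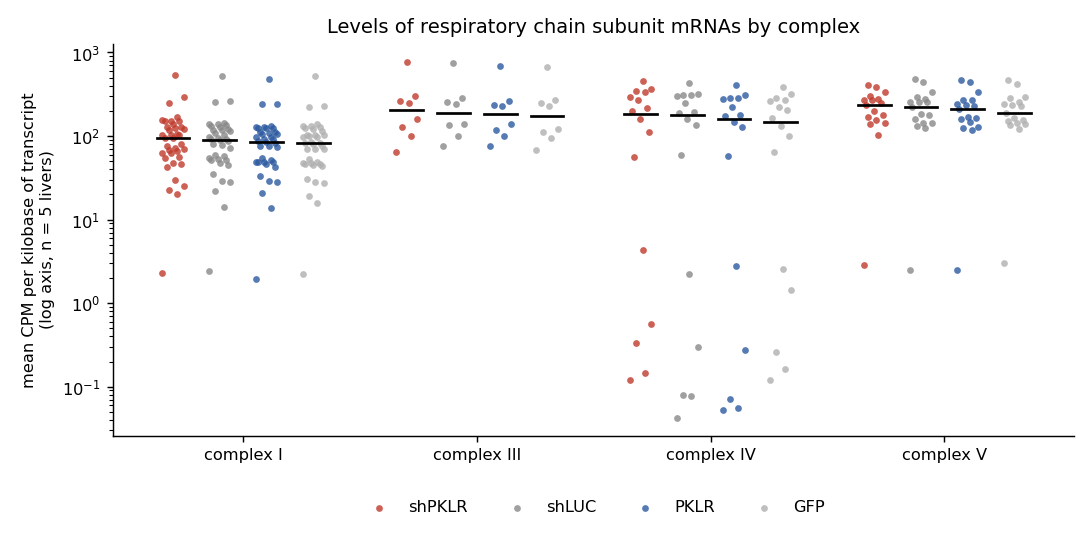
Mean level of each listed member in CPM per kilobase of transcript (log axis), by complex and group, with 5 livers a group; a point is a gene and a black line the median of the complex. Complex V has the highest medians (232 in shPKLR and 220 in shLUC livers) and complex I the lowest. In each group the complex V median is the value of Atp5g1, whose length is uncertain. Under 1 CPM per kilobase lie 4 complex IV genes in shPKLR, shLUC and PKLR livers and 3 in GFP livers.

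Forms of a subunit were compared as shares of their summed CPM per kilobase, and the forms known from other tissues were low in every group. Cox4i1 made up 99.96% of the Cox4i pair in shPKLR livers and 99.98% in shLUC livers, with Cox4i2, known from lung, at 0 to 20 counts in a library. Cox6a1 against Cox6a2 and Cox8a against Cox8b, whose second forms belong to heart and muscle, were split as unevenly, with Cox6a2 at 0 to 18 and Cox8b at 0 to 14 counts. Cox6b2, a testis form, took 0.163% ± 0.0623 of the Cox6b pair in shPKLR livers and 0.0999% ± 0.0421 in shLUC livers, and 0.0941% ± 0.0757 in PKLR livers and 0.493% ± 0.581 in GFP livers (SD, n = 5 each). These 4 genes were the listed members that did not pass the filter on low counts in either experiment. Within the Cox7a set, on the same scale per kilobase, Cox7a2 held 76.5% in shPKLR and 75.6% in shLUC livers, Cox7a2l 21.9% and 23.5%, and the muscle form Cox7a1 1.58% and 0.893%. Of the 3 genes that encode the same mature c-ring protein, Atp5g3 took 53.3% of the level per kilobase in shPKLR livers against 56.6% in shLUC livers, and 55.7% in PKLR livers against 56.0% in GFP livers, shares that depend on the uncertain lengths of Atp5g1 and Atp5g2. Ndufa4l2, a hypoxia-inducible relative of Ndufa4, took 0.421% of that pair in shPKLR and 0.464% in shLUC livers, and 0.393% in PKLR and 0.429% in GFP livers.

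In the knockdown, no member passed the test: 0 of 75 members tested were called by edgeR's quasi-likelihood test at an adjusted p of 0.05, where 0.00641% of all 15611 genes tested were called. Of the members, 48 were higher and 27 lower in shPKLR livers, with a median log2 fold change of 0.08, against 0.02 over all genes. The medians were 0.09 in complex I (26 of 38 higher), 0.04 in complex III (5 of 8), 0.10 in complex IV (8 of 12) and 0.08 in complex V (9 of 17). Of the 75, 2 had an unadjusted p under 0.05 (2.67%), against 15% of all genes. These signs depended on shPKLR 4, and more so when shPKLR 1 was left out with it. Without both libraries 7 members were higher and 68 lower, with a median of -0.12, against 0.01 over all genes, and 0 were called. The medians were then -0.11, -0.16, -0.16 and -0.12 for complexes I, III, IV and V. Without shPKLR 4 alone 20 members were higher and the median was -0.07. In the other fits that left out 1 library, shPKLR 1 among them, the count of higher members moved less. When each library's trend of level on transcript length was removed in the fit, 31 were higher and the median was -0.04. Markers of other cells had the following values in the same comparison. All 8 macrophage markers were higher (median 0.47), with sums of 105 to 287 CPM in shPKLR livers (highest in shPKLR 1), against 115 to 211 CPM in shLUC livers. All 7 lymphocyte markers tested were higher (median 0.37), with sums over the list of 7.77 to 26.9 CPM in shPKLR livers (highest in shPKLR 4), against 8.96 to 12.4 CPM in shLUC livers. No marker of these 2 lists was at 0 in a whole group. Other lists went both ways. Of the markers tested, 6 of 8 hepatocyte, 5 of 6 endothelial and 3 of 4 erythroid markers were lower. Higher were 4 of 5 cholangiocyte, 4 of 4 smooth muscle, 4 of 6 cell division and 4 of 8 stellate and matrix markers. Lists with only 1 or 2 genes tested are left out. The part of any list in the members' values was not tested.

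Atp5f1, which encodes subunit b of the peripheral stalk that holds the ATP synthase together, had the lowest knockdown log2 fold change of the members. It lies on chromosome 3 at 105942698 to 105960099 (GRCm38, minus strand) with 8 exons. The shPKLR livers 1 to 5 had 179, 143, 207, 115 and 183 CPM, against 268, 254, 260, 275 and 241 CPM in the shLUC livers. Every shPKLR liver lay below every shLUC liver, and Atp5f1 was the only 1 of 75 members without overlap. Of all genes, 2.03% had all 5 shPKLR livers lower, 1.24% had all 5 higher and 3.27% had no overlap in either direction. Lack of overlap was thus no more frequent among the members than among all genes. The log2 fold change was -0.65 (SE 0.15, unadjusted p = 0.000943), and edgeR's adjusted p of 0.171 missed the threshold. DESeq2 (adjusted p = 0.00956) and edgeR in 1 fit of all 20 libraries (adjusted p = 0.020) called it. Over all genes these fits called 260 and 114 genes, against 1 in the main test. Without shPKLR 1 and 4 the value was -0.55 (SE 0.13), and with the length trend removed -0.63 (SE 0.15). As a share of all complex V counts, which needs no scaling between libraries, Atp5f1 made up 4.71% ± 1.17 in shPKLR livers and 6.75% ± 0.214 in shLUC livers, and 6.76% ± 0.285 in PKLR livers and 6.71% ± 0.340 in GFP livers (SD, n = 5 each). The shPKLR shares of 3.11% to 5.81% did not overlap the shLUC shares of 6.49% to 6.96%. Set against Atp5b of the same liver, Atp5f1 had 25.6, 16.9, 24.2, 23.3 and 22.3 CPM per 100 CPM of Atp5b in shPKLR livers, against 29.3, 28.8, 30.4, 34.4 and 28.6 in shLUC livers, which did not overlap either, also in shPKLR 4 where both genes were low. The share and this ratio use the same Atp5f1 counts and were taken for Atp5f1 only, so they are not further support. Wdr77, which overlaps Atp5f1 on the other strand, averaged 9.37 ± 1.33 CPM in shPKLR livers and 8.25 ± 0.937 CPM in shLUC livers, and no source used here gives the strand setting of the counting. Other members overlap further genes and carry the same limit, among them Atp5a1 (Haus1), Cox5a (Gm26631), Cox4i1 (Emc8), Ndufb2 (Braf) and Uqcrc2 (Pdzd9) on the other strand and Ndufb8 (Gm20538) and Ndufb2 (Gm42420) on the same strand.

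No other gene of complex V passed the test either. Atp5a1, the alpha subunit, had 628, 831, 773, 428 and 687 CPM in shPKLR livers, against 881, 843, 806, 806 and 811 CPM in shLUC livers. Only shPKLR 2 reached into the shLUC range, and the log2 fold change was -0.31 (SE 0.16, edgeR adjusted p = 0.373), or -0.12 without shPKLR 1 and 4. Atp5b was at -0.21 (SE 0.15) and Atp5g3 at -0.20 (SE 0.11). Atp5s, known as a coupling factor B-like protein, was at 0.21 (SE 0.18). In shPKLR 4, the lowest ratios to the shLUC mean were those of Atp5f1 (0.444), Uqcrc2 (0.513), Atp5a1 (0.516) and Atp5b (0.575), with transcripts of 1604 to 2471 bases. Other members of like length were not as low, such as Ndufs1 (2590 bases, 0.726), Ndufa10 (2020 bases, 1.02) and Ndufv2 (1697 bases, 1.28). In shPKLR 4, 56 of the 75 members lay above all shLUC livers and 10 below them, and the same shares over all genes were not counted.

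In complex IV, Cox7a1, the heart and muscle form of subunit 7a, had the highest log2 fold change of the members, at 0.97 (SE 0.39, edgeR adjusted p = 0.30). It had 2.01, 0.874, 0.691, 3.43 and 1.39 CPM in shPKLR livers, against 0.808, 0.766, 0.833, 1.18 and 0.822 CPM in shLUC livers. The groups overlapped, the highest values came from shPKLR 4 and 1, and without those libraries the value was 0.16 (SE 0.28). The 7 skeletal muscle markers summed to 1.16 to 2.16 CPM in shPKLR livers and 0.506 to 2.16 CPM in shLUC livers, and the 5 smooth muscle markers to 15.2 to 30.7 CPM in shPKLR livers and 14.4 to 22.1 CPM in shLUC livers, with none at 0 in either group; their part in the Cox7a1 values was not tested. Cox5a, a subunit on the matrix side, had 60.6, 81.8, 68.0, 64.6 and 83.1 CPM in shPKLR livers, against 107, 87.2, 96.2, 72.5 and 73.1 CPM in shLUC livers. These ranges overlapped (-0.28, SE 0.14, adjusted p = 0.357), and Cox4i1, the core-binding subunit 4, was at 0.21 (SE 0.19).

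In complexes I and III the members with the smallest p split by sign. Ndufb2, a small subunit of the membrane arm, had 13.3, 6.54, 6.12, 14.1 and 5.55 CPM in shPKLR livers, against 6.73, 5.03, 7.80, 7.27 and 5.23 CPM in shLUC livers. Only shPKLR 1 and 4 were above the shLUC range (0.52, SE 0.27, edgeR adjusted p = 0.375), and without them the log2 fold change was -0.08. Ndufc2 and Ndufb8, both accessory subunits of the membrane arm, were at -0.20 (SE 0.11) and -0.18 (SE 0.11). Of the complex III core proteins, Uqcrc2 had 137, 137, 129, 73.9 and 127 CPM in shPKLR livers, against 152, 146, 137, 149 and 136 CPM in shLUC livers. The groups overlapped, and shPKLR 4 lay far below the rest of its group (-0.26, SE 0.16, adjusted p = 0.432). Its partner Uqcrc1 was at -0.10 (SE 0.11), and the small subunit Uqcrb at 0.25 (SE 0.25).

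**Figure D2:**
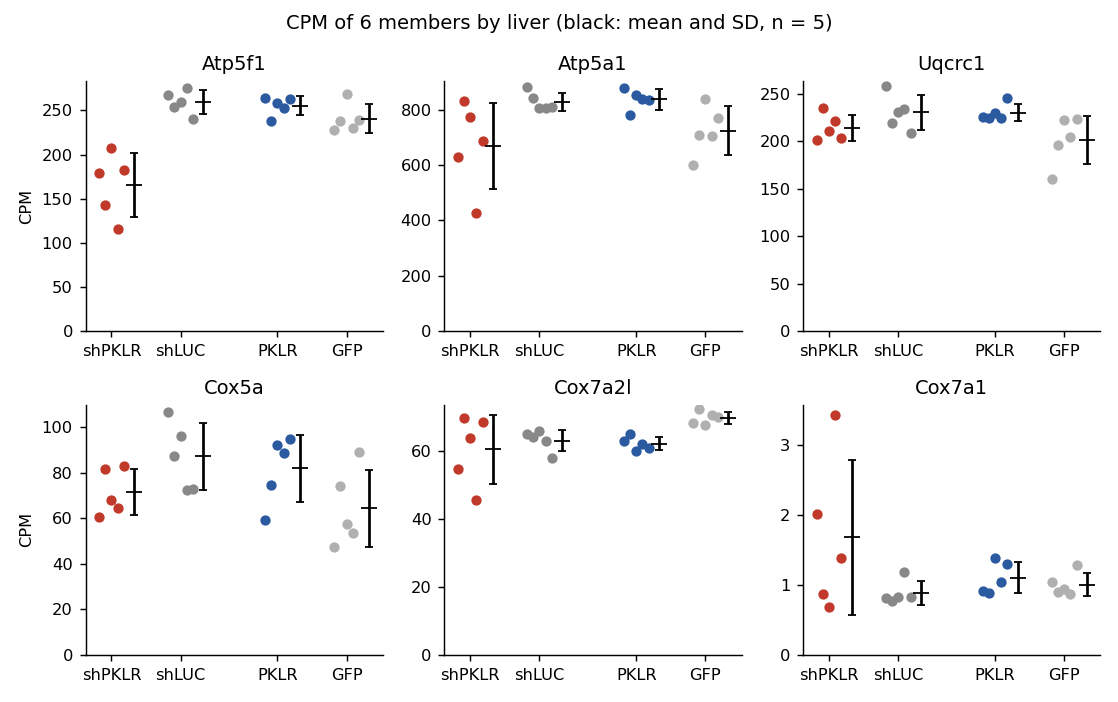
CPM of 6 members in each liver, with shPKLR left of shLUC and PKLR left of GFP; points are livers, and the black marks are the mean and SD of 5 livers. Atp5f1 is lower in all 5 shPKLR livers (115 to 207 CPM) than in any shLUC liver (241 to 275 CPM), while the highest Cox7a1 values are in shPKLR 4 and 1.

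Within a liver, the complexes mostly moved together. As the median log2 ratio of the members to the control mean, shPKLR 4 stood at 0.66 for complex I, 0.30 for complex III, 0.70 for complex IV and 0.58 for complex V. The shPKLR 5 liver stood at -0.24, -0.21, -0.19 and -0.26 for the same complexes. In it 32 of 75 members lay below all shLUC livers, and the share of all genes that did so was not counted. Control livers spread as well: shLUC 5 stood at -0.25 over all members and shLUC 4 at 0.17. The median coefficient of variation of a member was 28.2% in shPKLR livers, against 13.8% in shLUC livers, and 7.96% in PKLR livers, against 10.3% in GFP livers.

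**Figure D3:**
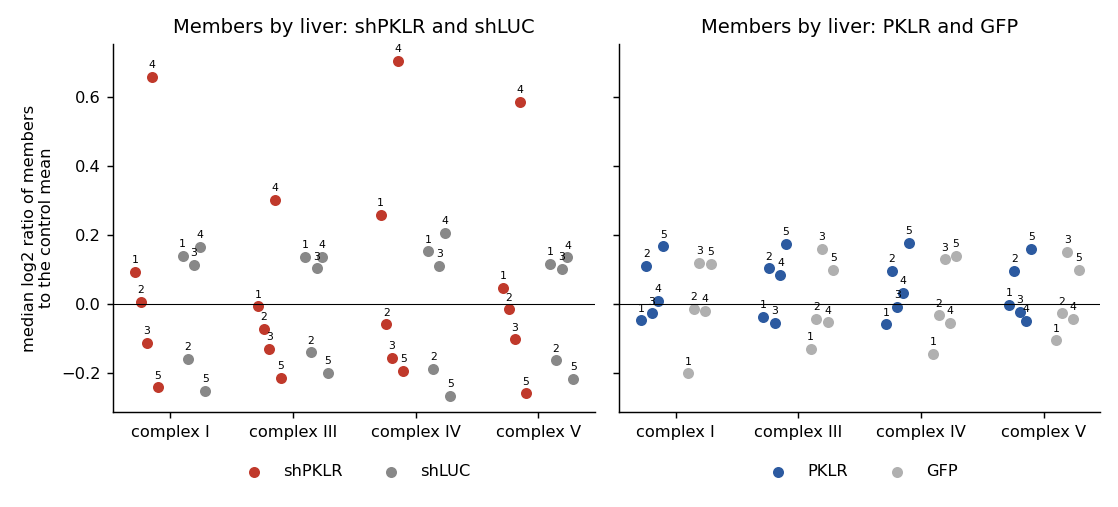
Median log2 ratio of the members of each complex to the control mean, for each liver (numbers are replicates), with shPKLR left of shLUC and PKLR left of GFP. In most livers the 4 complexes lie close together, and shPKLR 4 lies highest, at 0.30 to 0.70.

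The relation to length was seen over all genes. In the knockdown, the 13 members of up to 500 bases had a median log2 fold change of 0.11, against 0.27 for other genes of that length. For over 500 to 1000 bases the median was 0.10 for 39 members, against 0.14 for other genes, and for over 1000 to 2000 bases it was -0.01 for 20 members, against 0.03 for other genes. The 3 members of over 2000 to 4000 bases had a median of -0.16, against -0.01 for other genes. In each class of length the median member was thus below the median of other genes. In the overexpression the order of the classes was turned round, with the members at 0.00, 0.06, 0.07 and 0.12 from short to long and other genes at -0.13, -0.05, 0.01 and 0.02. There the median member was above other genes in each class. These medians carry no test. The overexpression libraries also differed by length. Relative to the GFP mean, the median gene of up to 1000 bases less that of over 3000 bases was -0.22, 0.01, -0.20, -0.12 and 0.07 in PKLR 1 to 5. In the GFP livers it ran from -0.06 to 0.04. The part of these library differences in the length classes was not tested.

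**Figure D4:**
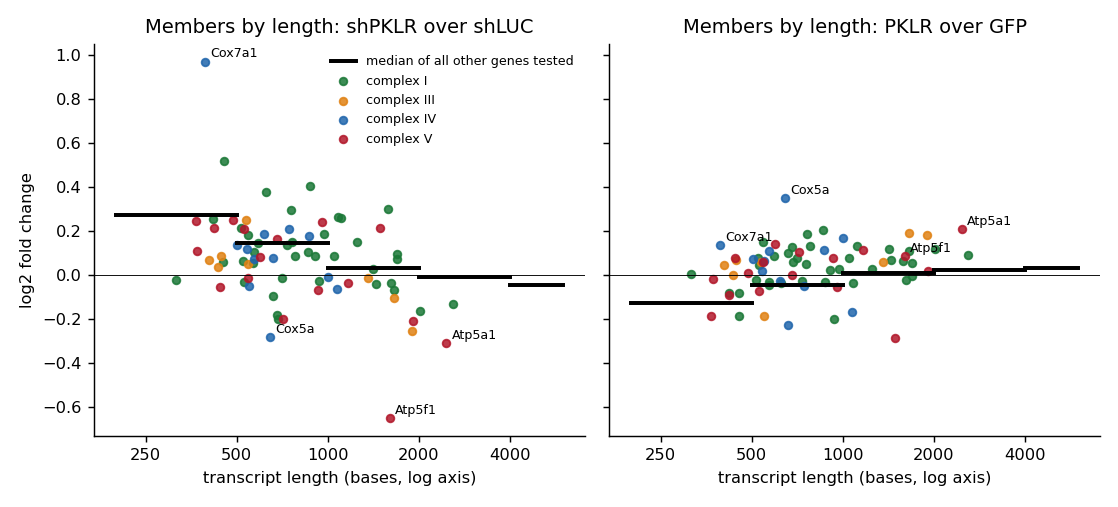
Log2 fold change of each member against the length of its transcript (log axis), shPKLR over shLUC on the left and PKLR over GFP on the right; black bars are medians of all other genes tested in 5 classes of length. Other genes of up to 500 bases have medians of 0.27 in the knockdown and -0.13 in the overexpression, and Atp5f1 lies at -0.65 in the knockdown.

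**Figure D5:**
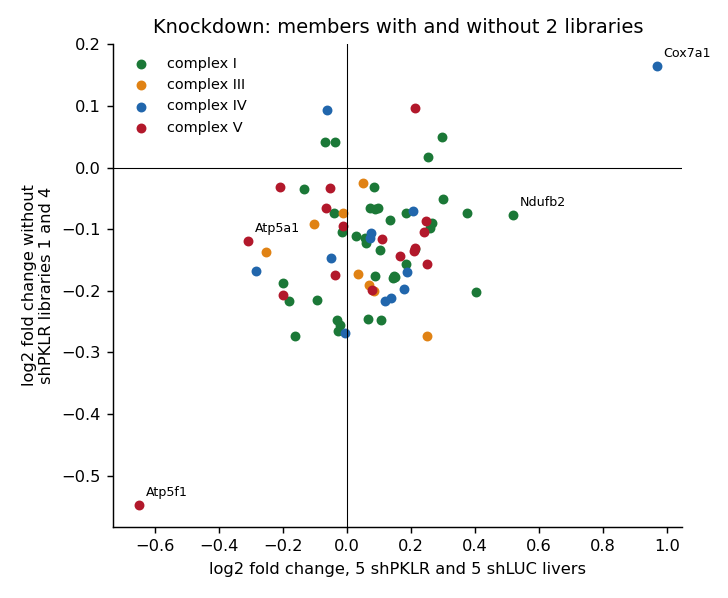
Log2 fold change (shPKLR over shLUC) of the 75 members with all 10 libraries (x axis) and without shPKLR libraries 1 and 4 (y axis), coloured by complex. Without these libraries 68 members lie below 0, and Atp5f1 stays at -0.55.

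In the overexpression, no member was called either: 0 of 75 passed edgeR's adjusted p of 0.05, where 2.03% of all 15842 genes tested did (1.19% higher and 0.846% lower). Of the members, 50 were higher and 25 lower in PKLR livers, with a median log2 fold change of 0.06, against 0.01 over all genes. By complex the medians were 0.05 (complex I, 25 of 38 higher), 0.06 (complex III, 7 of 8), 0.07 (complex IV, 8 of 12) and 0.02 (complex V, 10 of 17). An unadjusted p under 0.05 was found for 5 members (6.67%), against 18.8% of all genes. GFP 1 bears on these signs: without it 37 of 75 were higher and the median was -0.0025. The 6 cell division markers summed to 4.69 to 11.9 CPM in PKLR livers, against 8.49 to 103 CPM in GFP livers, and the 8 macrophage markers to 82.1 to 264 CPM in PKLR livers, against 89.9 to 363 CPM in GFP livers, both with the highest sum in GFP 1. By direction, 6 of 6 cell division markers were lower (median -2.31, 1 called by edgeR), and the macrophage markers were split, with 4 higher and 4 lower. All 8 lymphocyte markers were lower (median -0.47, 1 called by edgeR), with sums of 7.31 to 10.4 CPM in PKLR livers, against 10.6 to 16.7 CPM in GFP livers. Of the 8 stellate and matrix markers, 7 were lower (median -0.86), with sums of 135 to 261 CPM in PKLR livers, against 208 to 449 CPM in GFP livers. The 4 smooth muscle markers tested were also lower (median -0.40), with sums over the list of 12.2 to 20.9 CPM in PKLR livers, against 16.4 to 29.2 CPM in GFP livers. No marker of these lists was at 0 in a whole group. Of other lists, 4 of 6 endothelial and 5 of 8 hepatocyte markers were higher. Lower were 4 of 5 cholangiocyte markers and 4 of 4 erythroid markers tested. The part of any list in the members' values was not tested. With the length trend removed 54 of 75 were higher and the median was 0.07. In PKLR 5, 35 of 75 members lay above all GFP livers, and in PKLR 3 there were 10 above and 15 below. The share of all genes outside the GFP livers was not counted, so these counts are not read as particular to the members.

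Uqcrc1 and Cox7a2l were the 2 members whose groups did not overlap, where 3.1% of all genes had all 5 PKLR livers higher, 1.93% all 5 lower and 5.03% either. Uqcrc1, a core protein of complex III, had 226, 224, 230, 225 and 246 CPM in PKLR livers, against 161, 196, 223, 205 and 223 CPM in GFP livers. All PKLR livers were higher, but the nearest values were 224 CPM in PKLR 2 and 223 CPM in GFP 5 (0.19, SE 0.10, edgeR adjusted p = 0.302). Cox7a2l, which links complexes III and IV into supercomplexes and of which C57BL/6 mice are known to carry a shortened protein, had 62.9, 65.1, 60.0, 62.1 and 61.0 CPM in PKLR livers, against 68.3, 72.4, 67.8, 70.7 and 70.0 CPM in GFP livers. All PKLR livers were lower (-0.17, SE 0.06, unadjusted p = 0.0129). Its adjusted p was 0.142 by edgeR and 0.0132 by DESeq2, which called it. Over all genes DESeq2 called 1107 and edgeR 322.

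Ndufa8, a complex I subunit on the side of the intermembrane space, had 86.7, 107, 93.5, 95.1 and 105 CPM in PKLR livers, against 76.2, 88.0, 86.8, 83.1 and 88.9 CPM in GFP livers. Only PKLR 1 lay within the GFP range (0.20, SE 0.08, edgeR adjusted p = 0.183). Cox7a2, the form of subunit 7a used in liver, was at -0.23 (SE 0.09, adjusted p = 0.183), and its groups overlapped. The hinge protein gene Uqcrh was at -0.19 (SE 0.08), and Atp5mpl, a small membrane subunit of complex V, at -0.19 (SE 0.08). Cox5a had the highest log2 fold change of the members, at 0.35 (SE 0.18, adjusted p = 0.328), with 59.4, 74.8, 92.1, 88.7 and 95.1 CPM in PKLR livers, against 47.6, 74.2, 57.7, 53.6 and 89.2 CPM in GFP livers. These ranges overlapped. Atp5a1 was at 0.21 (SE 0.10), Uqcrc2 at 0.18 (SE 0.08), Ndufb3, a membrane arm subunit, at 0.18 (SE 0.09), and Ndufa12, an accessory subunit, at 0.13 (SE 0.07). Atp5s was lowest, at -0.29 (SE 0.14). Atp5f1 had 264, 238, 258, 253 and 263 CPM in PKLR livers, against 228, 238, 269, 230 and 239 CPM in GFP livers, and these overlapped (0.08, SE 0.08, adjusted p = 0.586).

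The 2 experiments have separate controls, so their effects could be set against each other in 1 model of all 20 livers (the overexpression effect less the knockdown effect, hereafter the difference). Of 76 members tested, 2 passed, 1 in each direction, where edgeR called 5.5% of 16407 genes (2.75% each way). Atp5f1 differed by 0.71 (SE 0.17, edgeR adjusted p = 0.0181). It passed in each of the 20 fits that left out 1 library (0.61 to 0.81) and was at 0.59 (adjusted p = 0.0233) without shPKLR 1, shPKLR 4 and GFP 1. Cox6b2 differed by -3.45 (SE 1.01, adjusted p = 0.0494), from very low values. It passed the filter on low counts in neither experiment, only where all 20 libraries were filtered together. Its counts were 11, 7, 3, 69 and 10 in shPKLR livers and 86, 20, 16, 7 and 2 in GFP livers. High values in these 2 groups make the difference negative, so its entry into the test and its call rest on the same values. Cox6b2 had 0.128, 0.0916, 0, 0.122 and 0.298 CPM in PKLR livers, against 2.07, 0.527, 0.519, 0.196 and 0.0558 CPM in GFP livers, and 0.308, 0.211, 0.0987, 0.409 and 0.289 CPM in shPKLR livers, against 0.135, 0.0920, 0.185, 0.0908 and 0.190 CPM in shLUC livers. The largest value came from 86 counts in GFP 1, and without that library the difference was -2.37 (edgeR adjusted p = 0.123). The call was lost in 15 of the 20 fits that left out 1 library, and held only without shPKLR 2, shPKLR 3, PKLR 5, GFP 4 or GFP 5 (adjusted p of 0.0172 to 0.123 over the 20 fits).

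Other members named by the rule had no call. Cox5a differed by 0.61 (SE 0.24), Atp5a1 by 0.49 (SE 0.19), Uqcrc2 by 0.41 (SE 0.18), Ndufb8 by 0.29 (SE 0.13), Uqcrc1 by 0.27 (SE 0.13) and Ndufa10 by 0.26 (SE 0.14), all with a lower knockdown and a higher overexpression value. Ndufb2 (-0.73, SE 0.32), Atp5s (-0.53, SE 0.23), Cox7a2 (-0.33, SE 0.17) and Uqcrh (-0.26, SE 0.13) had the opposite signs. With the length trend removed, Ndufb8 passed (0.44, adjusted p = 0.0330), and without GFP 5, Cox5a did (0.75, adjusted p = 0.0442). Of the 75 members tested in both experiments, 24 were lower in the knockdown and higher in the overexpression, 22 the reverse, 26 higher in both and 3 lower in both.

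Other genes of the pathway were read from the same fits. The 13 mitochondrially encoded subunits were lower in 12 cases in the knockdown (median -0.19) and higher in 13 in the overexpression (median 0.27). By edgeR 0 of 13 were called in either, where 0.00641% and 2.03% of all genes were. An unadjusted p under 0.05 was found for 3 and 5 of the 13, against 15% and 18.8% of all genes. DESeq2 called 0 in the knockdown and 3 in the overexpression (mt-Nd4l, mt-Co1 and mt-Nd5). Over all genes DESeq2 called 260 in the knockdown, where 15611 passed the filter, and 1107 in the overexpression, where 15842 did. Their summed level was 87862 ± 10376 CPM in shPKLR livers, against 102466 ± 11235 in shLUC livers, and 97235 ± 8436 in PKLR livers, against 80583 ± 10173 in GFP livers (SD, n = 5 each). In the difference 3 of the 13 passed (5.5% of all genes did), all higher: mt-Nd4l (1.06, SE 0.24), mt-Co1 (0.64, SE 0.16) and mt-Nd5 (0.89, SE 0.24). Nuclear copies of mitochondrial genes are in the counts, so these values may hold reads counted at more than 1 place. The 6 genes of complex II and cytochrome c were all lower in the knockdown (median -0.16) and all higher in the overexpression (median 0.17). None passed with edgeR in any test or with DESeq2 in either experiment. In edgeR 0 and 1 of the 6 had an unadjusted p under 0.05, against 15% and 18.8% of all genes. Sdha, the flavoprotein of complex II, was at -0.39 (SE 0.20) and 0.19 (SE 0.10). Without shPKLR 1 and 4 the medians were -0.34 for the mitochondrially encoded subunits and -0.15 for complex II and cytochrome c. Without GFP 1 they were 0.22 and 0.07.

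The lists that follow are to be read against all genes, of which 15% in the knockdown and 18.8% in the overexpression had an unadjusted p under 0.05, and 5.5% were called in the difference. Over all genes DESeq2 called 260 in the knockdown and 1107 in the overexpression. Of 39 assembly factors tested, 0 passed edgeR in either experiment (4 in the knockdown and 5 in the overexpression at an unadjusted p under 0.05; DESeq2 called 0 and 1) and 2 in the difference, both higher: Acad9, a complex I assembly factor (0.77, SE 0.22, edgeR adjusted p = 0.0431), and Coa6, a complex IV copper chaperone (0.58, SE 0.17, adjusted p = 0.0497). Of 17 regulators of mitochondrial genes, 0 passed edgeR in either experiment (3 and 2 at an unadjusted p under 0.05; DESeq2 called 1 and 2) and 1 in the difference. This was Esrrg, a nuclear receptor that activates oxidative genes, at 1.41 ± 0.508 CPM in shPKLR livers against 3.01 ± 0.775 CPM in shLUC livers, and at 2.31 ± 0.732 CPM in PKLR livers against 0.864 ± 0.562 CPM in GFP livers (SD, n = 5 each). Its difference was 2.52 (SE 0.47, adjusted p = 0.00423). The mitochondrial ribosome had 51 of 77 genes higher in the knockdown and 36 of 77 in the overexpression, with medians of 0.05 and -0.01, 0 called by edgeR or DESeq2, and 2 and 7 at an unadjusted p under 0.05. Cytosolic ribosomal protein genes, with a median length of 681 bases close to that of the members, were higher in 76 of 79 cases in the knockdown (median 0.26) and in 7 of 79 in the overexpression (median -0.11), with 0 called by edgeR or DESeq2 and 13 and 5 at an unadjusted p under 0.05. Without shPKLR 1 and 4 their knockdown median was 0.08 (69 of 79 higher), while that of the members was below 0.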

How the data were processed

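Liver RNA of 20 mice was sequenced from stranded total RNA libraries, per the labels' protocols. The authors deposited whole-number read counts per gene, not normalized, in 1 table per experiment, with 27052 genes for the knockdown and 26286 for the overexpression. The submitters' processing notes name HISAT2 and DESeq2 with no version, and the builds GRCm38 and mm10. No source used here gives the counting program or its strand setting. All value columns matched a library by name (0 unmatched). The nuclear copy Gm28661 held 1.00 to 1.02 times the counts of mt-Co2, and how reads that map to several places were counted was not tested, so members with processed pseudogenes (11 were listed in each table) are less certain.

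GENCODE for GRCm38 gave symbols, lengths and coordinates and matched 26912 and 26146 identifiers. Each experiment was tested with edgeR 4.0.16 (quasi-likelihood, robust, TMM, filterByExpr; R 4.3.3) over all genes, with Benjamini-Hochberg adjustment and calls at 0.05. The difference was tested on all 20 libraries. The SE is the log2 fold change divided by the square root of its F statistic. CPM were TMM-scaled within each experiment. The steps were tested on simulated counts. The alternatives were RLE size factors, other filters, DESeq2 1.42.0, limma-voom (limma 3.58.1), replicate number as a block, other gene sets in the library size, shPKLR 4 thinned to a usual depth, every library in 1 fit, and leaving out libraries in turn. Chosen after seeing the data were the fits without shPKLR 1 and 4 (and GFP 1) and the offset for transcript length (lowess of span 0.3 per library).

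Members named are those called, the 3 with the smallest p of each complex and comparison, the highest of each complex, and isoform sets; of other lists, up to 5 called genes or the 2 with the smallest p. Atp5b and others named for shPKLR 4 were chosen after their values were seen. The members and all lists were chosen with earlier results of these data known. Replicates within a group differed well beyond counting noise (chi-square per degree of freedom of at least 29.2), and p-values measure the spread between livers. Levels of genes of a few counts, such as Cox4i2, are limited by depth.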

Additional observations from a re-analysis of the deposited data

Results flagged for a closer look

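A liver lay far from the other 4 of its group, by Dixon's 95% criterion, in 7 of 72 sets of values examined. These sets were named members and the summed CPM of all members and of each complex, within each group. All 7 were values of single members. Chance alone flags about 1 in 20 sets. Uqcrc2 was at 73.9 CPM in shPKLR 4 and Cox7a1 at 1.18 CPM in shLUC 4. In the overexpression Uqcrc1 was at 246 CPM in PKLR 5, Ndufb8 at 53.0 CPM in PKLR 1, Atp5f1 at 269 CPM in GFP 3, Ndufb2 at 9.15 CPM in GFP 1 and Cox6b2 at 2.07 CPM in GFP 1. In 2 members the effects of the experiments differed by the test of the difference in edgeR: Atp5f1 by 0.71 (adjusted p = 0.0181) and Cox6b2 by -3.45 (adjusted p = 0.0494). Atp5f1 was lower in 5 of 5 shPKLR livers than in every shLUC liver. Cox6b2 passed the filter on low counts only where all 20 libraries were filtered together, with its highest counts in GFP and shPKLR livers. The Cox6b2 call was lost in 15 of the 20 fits that left out 1 library, GFP 1 among them, and with RLE size factors (adjusted p = 0.0508), with no filter (0.0636) and with the replicate block (0.112).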

How the results depend on the processing

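Of the knockdown results, the count of members called was 1 (Atp5f1) with DESeq2 and in 1 fit of all 20 libraries, and 0 in the other alternatives, including each library left out. Without shPKLR libraries 1 and 4 the knockdown median log2 fold change was -0.12 over all members, -0.11 in complex I, -0.16 in complexes III and IV and -0.12 in complex V. In the overexpression 1 member (Cox7a2l) was called with DESeq2. In the difference 1 member (Atp5f1) was called with RLE size factors, with no filter, with a minimum of 1 CPM in 5 libraries, with the replicate block and without shPKLR 1, shPKLR 4 and GFP 1; leaving out 1 library at a time gave 1 to 3. Over all genes the knockdown called 1 in the main test, 3 with the replicate block, 7 with RLE size factors or without mitochondrial and ribosomal RNA genes, 8 with limma-voom or the length offset, 9 without shPKLR 1 and 4, 17 with no filter, 114 in 1 fit of all libraries and 260 with DESeq2. The overexpression called 544 with the replicate block and 1107 with DESeq2, against 322, and the difference 1626 with DESeq2, against 902. Leaving out 1 library gave 1 to 12 knockdown calls (12 without shPKLR 2), 128 to 469 in the overexpression (without GFP 4 and GFP 5) and 485 to 1384 in the difference (without shLUC 2 and shPKLR 2). Same-numbered livers did not deviate together (correlations of -0.20 to 0.35 in the knockdown and -0.11 to 0.26 in the overexpression), so the numbers were not taken as pairs. Depth limits Cox4i2, Cox6a2, Cox8b and Cox6b2, whose counts ran from 0 to at most 86 in a library. The causes of these shifts were not tested.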
